A study of Mus musculus with 6 samples.

Results

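In mammary tumours of mice dosed with TMP195 or with vehicle, 37 lysosomal genes were examined. They were chosen by name as well-known hydrolases, cathepsins and membrane proteins of the lysosome, and each had to be measured by a probe set that the array's annotation assigns to exactly 1 gene. All 37 were found among the 19937 genes measured in this way, each on a single probe set. By where they are known to be made, 30 were classed as ubiquitous and 5 as macrophage-restricted (Ctss, Laptm5, Gpnmb, Acp5 and Atp6v0d2). The other 2 (Ctsk and Ctse) were classed as other restricted, being known from other restricted sites. The name macrophage-restricted is a short label, since some of the 5 are also known from osteoclasts, melanocytes or other blood-derived cells.

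The tumours came from 6 female FVBN mice carrying the MMTV-PyMT transgene, whose polyoma middle T oncogene is expressed in mammary epithelium from the promoter of mouse mammary tumour virus. The age given for these mice is 75 to 90 days. All 6 carried the transgene and all were injected into the peritoneal cavity once a day. The vehicle group (3 mice) received DMSO, and the TMP195 group (3 mice) received TMP195, an inhibitor of the class IIa histone deacetylases, at 50 mg/kg. The length of dosing is given as 5 days in one description and as 2 weeks in another. Each mouse gave 1 whole tumour and each tumour 1 Affymetrix array, and no animal contributed more than 1 sample. A whole tumour holds cancer cells, macrophages, fibroblasts, fat and other cells, and fewer cells of a type cannot be told apart from less RNA per cell.

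The lysosome is the acidic compartment in which cells break down proteins, sugars and lipids taken up from outside or delivered by autophagy. A proton pump, the V-ATPase, acidifies it, most of its soluble enzymes are sent there by a mannose 6-phosphate tag, and the transcription factor TFEB activates many of its genes through a DNA element called CLEAR, which has an E-box at its centre. In mammary tumours, cathepsins are made both by the cancer cells and by macrophages, which are rich in lysosomes and can also secrete these enzymes.

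Facts of the whole array set bear on all that follows. Median intensity was between 44.8 and 46.4 in the 6 tumours. Precision is limited throughout by there being 3 arrays a group. The labelled tissue held its defining transcripts: the epithelial marker mean was between 10.20 and 10.32 on the log2 scale, and Krt8, Krt18 and Epcam ranked at percentiles 98.8, 99.3 and 97.3 of mean intensity over all genes. Vehicle tumour 2 stood apart in skeletal muscle markers, whose mean was 7.96 there and between 4.53 and 4.97 in the other tumours. TMP195 tumour 2 stood apart in having the lowest means of both adipocyte markers (4.72, against 5.85 to 8.55 elsewhere) and fibroblast markers (8.60, against 8.75 to 9.45).

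The promoters of several ubiquitous members carry the E-box that TFEB and its relatives recognise, and 5 are shown because their genes are compared between the dosing groups by this motif. Each is the 250 bases before an annotated transcription start in RefSeq on build GRCm38.p6, printed 5′ to 3′ along the gene's strand. Capitals mark TCACGTG or its reverse complement, and the longer runs are the palindrome TCACGTGA. Lamp1 encodes the most abundant lysosomal membrane glycoprotein (chr8:13158911-13159160, plus strand), Ctsd the aspartic protease cathepsin D (chr7:142387828-142388077, minus strand), Cln3 a membrane protein lost in juvenile neuronal ceroid lipofuscinosis (chr7:126583237-126583486, minus strand), Mcoln1 the lysosomal calcium channel TRPML1 (chr8:3500269-3500518, plus strand) and Gla the alpha-galactosidase that is deficient in Fabry disease (chrX:134601006-134601255, minus strand).
Lamp1: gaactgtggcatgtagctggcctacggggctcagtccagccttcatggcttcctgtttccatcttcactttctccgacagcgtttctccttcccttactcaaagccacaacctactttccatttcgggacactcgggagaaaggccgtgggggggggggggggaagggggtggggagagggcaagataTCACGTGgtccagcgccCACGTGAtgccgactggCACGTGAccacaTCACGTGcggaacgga
Ctsd: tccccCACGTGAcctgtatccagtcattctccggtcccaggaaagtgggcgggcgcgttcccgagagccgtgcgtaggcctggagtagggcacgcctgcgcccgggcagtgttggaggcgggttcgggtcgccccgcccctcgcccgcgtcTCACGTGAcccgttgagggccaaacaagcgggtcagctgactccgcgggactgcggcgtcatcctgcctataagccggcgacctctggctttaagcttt
Cln3: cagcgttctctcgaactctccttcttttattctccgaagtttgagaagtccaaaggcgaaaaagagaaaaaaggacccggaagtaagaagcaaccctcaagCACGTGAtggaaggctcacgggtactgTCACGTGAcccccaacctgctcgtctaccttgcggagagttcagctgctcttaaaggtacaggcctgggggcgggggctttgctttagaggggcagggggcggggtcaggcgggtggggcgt
Mcoln1: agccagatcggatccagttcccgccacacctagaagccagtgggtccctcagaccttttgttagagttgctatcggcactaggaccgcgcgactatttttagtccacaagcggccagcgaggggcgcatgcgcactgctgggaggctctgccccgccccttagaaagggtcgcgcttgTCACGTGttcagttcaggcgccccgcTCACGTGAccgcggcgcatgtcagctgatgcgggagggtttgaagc
Gla: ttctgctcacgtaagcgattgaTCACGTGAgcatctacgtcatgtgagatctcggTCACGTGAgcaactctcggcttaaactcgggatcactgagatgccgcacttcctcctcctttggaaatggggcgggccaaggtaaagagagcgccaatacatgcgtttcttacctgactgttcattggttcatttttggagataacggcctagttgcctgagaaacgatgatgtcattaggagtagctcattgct
The hexamer CACGTG began at positions -61, -45, -28 and -15 before the start in Lamp1, at -245 and -98 in Ctsd, at -149 and -121 in Cln3, at -71 and -45 in Mcoln1 and at -227 and -194 in Gla. A match describes letters in a window and does not show that a factor binds there.

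No lysosomal member differed between TMP195 and vehicle tumours beyond the test's threshold. In limma, fitted over all 19937 genes with Benjamini-Hochberg adjustment, 0 of 37 members passed an adjusted p of 0.05, and 0% of all genes did. At an unadjusted p under 0.05 the count was 0 of 37 members, beside 2.52% of all genes, and the smallest unadjusted p of a member in limma was 0.16, for Ctse. The median difference over the 37 members, TMP195 minus vehicle, was 0.012 on the log2 scale, beside -0.0014 over all genes. Differences were below 0 in 17 of 37 members (45.9%), beside 50.5% of all genes, and ran from -0.26 for Ctse to 0.15 for Scarb2. None of the members (0 of 37) reached 1.5-fold in either direction, which 1.27% of all genes did.

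Markers of other cells were read beside the members, and 0 of those in the lists that follow passed an adjusted p of 0.05 in limma. The adipocyte, macrophage, epithelial and osteoclast lists each held 1 marker at an unadjusted p under 0.05 in limma. The difference was below 0 in 9 of 9 adipocyte markers (median -0.99), 8 of 9 proliferation markers (median -0.24), 16 of 19 macrophage markers (median -0.11) and 10 of 12 fibroblast markers (median -0.11), beside 50.5% of all genes. It was also below 0 in 10 of 10 skeletal muscle markers (median -0.92), where vehicle tumour 2 alone was high, with a list mean of 7.96 against 4.62 and 4.53 in the other vehicle tumours and 4.61, 4.59 and 4.97 under TMP195. The remaining lists were mixed. The difference was below 0 in 5 of 12 epithelial markers (median 0.012) and 3 of 8 osteoclast markers (median 0.054). It was below 0 in 5 of 9 lymphocyte (median -0.0022), 5 of 8 neutrophil (median -0.098) and 4 of 6 melanocyte markers (median -0.045). The mean of each of these lists overlapped between the groups, and the part of these cells in the members' differences was not tested.

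The intervals show how large a difference these arrays could have missed. For 33 of 37 members the 95% interval of the difference lay within 1.5-fold in either direction, and for all 37 it lay within 2-fold. All 30 ubiquitous members were among the 33. The 4 with wider intervals were Gpnmb, Atp6v0d2, Ctsk and Ctse, and the widest reached from -0.76 to 0.92 in Gpnmb.

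**Figure D1:**
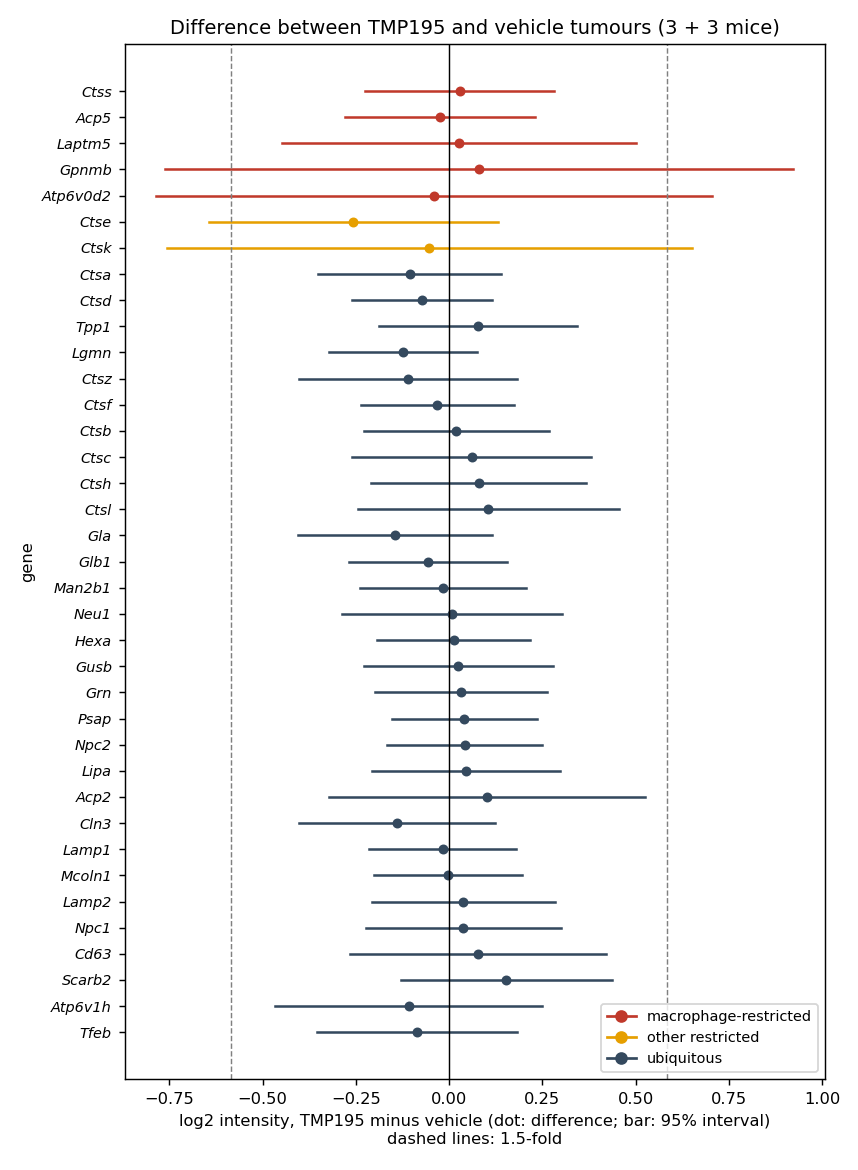
Log2 intensity difference, TMP195 minus vehicle (3 mice each), on the horizontal axis for each of the 37 genes on the vertical axis, with limma's 95% interval as a bar and 1.5-fold marked by dashed lines. Every bar crosses 0, and the bars of Gpnmb, Atp6v0d2, Ctsk and Ctse are the ones that cross a dashed line.

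The cysteine proteases were taken first. Lgmn encodes legumain, an asparaginyl endopeptidase that also activates cathepsins. Its log2 intensity was 9.31, 9.25 and 9.30 under vehicle (tumours 1, 2 and 3, the order used throughout), and under TMP195 it was 9.14, 9.23 and 9.12. Every TMP195 tumour lay below every vehicle tumour, by a difference of -0.12 ± 0.084 (SE, n = 3 and 3; limma adjusted p = 1.0). Groups without overlap were seen in 2 of 37 members, or 5.41%, beside 6.68% of all genes; both lay lower under TMP195, as 3.21% of all genes did, and 0 lay higher, as 3.47% of all genes did.

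Ctsz encodes cathepsin Z, a carboxypeptidase, and measured 10.02, 10.30 and 9.98 under vehicle and 10.04, 9.84 and 10.09 under TMP195. Vehicle tumour 2 was its highest and TMP195 tumour 2 its lowest, the groups overlapped, and the difference was -0.11 ± 0.12 (SE). It was -0.012 without vehicle tumour 2, -0.036 without TMP195 tumour 2 and -0.17 without vehicle tumour 3. The other ubiquitous cysteine cathepsins, Ctsb, Ctsc, Ctsf, Ctsh and Ctsl, differed by between -0.03 and 0.10. TMP195 tumour 2 carried the highest level of 3 of these: 9.51 for Ctsl, against 8.97 to 9.25 elsewhere, 10.18 for Ctsc, the activator of granule serine proteases, against 9.76 to 9.95, and 11.13 for Ctsb, an abundant endopeptidase, against 10.85 to 10.97. Ctsh, an aminopeptidase, had its lowest level, 8.90, in vehicle tumour 2 and 9.12 to 9.27 elsewhere. Ctsf, at 5.76 to 5.91, spread little over the tumours.

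Among the aspartic and serine proteases, cathepsin D gave the tightest groups. Ctsd measured 11.74, 11.76 and 11.72 under vehicle and 11.68, 11.66 and 11.65 under TMP195. It was the second member whose groups did not overlap, and its difference was -0.07 ± 0.08 (SE), with a 95% interval of -0.26 to 0.12. Ctsa, which encodes the carboxypeptidase that protects beta-galactosidase and neuraminidase in a complex, measured 10.10, 10.39 and 10.23 under vehicle and 10.15, 10.08 and 10.17 under TMP195. Its groups overlapped, with vehicle tumour 2 highest, and differed by -0.11 ± 0.10 (SE); the difference was -0.031 without vehicle tumour 2 and -0.18 without vehicle tumour 1. Tpp1, a tripeptidyl peptidase, differed by 0.08 ± 0.11 (SE) and was highest, at 9.47, in TMP195 tumour 2.

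Ctse encodes cathepsin E, an aspartic protease known from stomach epithelium and some immune cells, and it showed the largest difference of the members in size. It measured 6.64, 6.61 and 6.37 under vehicle and 6.18, 6.62 and 6.06 under TMP195. TMP195 tumours 1 and 3 lay below all vehicle tumours and TMP195 tumour 2 lay among them. The difference was -0.26 ± 0.16 (SE), with a 95% interval of -0.64 to 0.13, and it ran from -0.42 without TMP195 tumour 2 to -0.14 without TMP195 tumour 3, where Ctse no longer had the largest difference.

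The glycosidases, which strip sugars from glycoproteins and glycolipids, lay close together in both groups. Gla measured 7.72, 7.94 and 7.65 under vehicle and 7.53, 7.66 and 7.69 under TMP195. Its highest value was in vehicle tumour 2, the groups overlapped, and the difference was -0.15 ± 0.11 (SE), or -0.059 without vehicle tumour 2, -0.096 without TMP195 tumour 1 and -0.20 without vehicle tumour 3. Glb1, beta-galactosidase, measured 8.49, 8.62 and 8.56 under vehicle and 8.58, 8.45 and 8.47 under TMP195, and differed by -0.06 ± 0.089 (SE), or -0.023 without vehicle tumour 2 and -0.096 without TMP195 tumour 1. The groups overlapped here too. Gusb, Hexa, Man2b1 and Neu1, which encode beta-glucuronidase, the alpha chain of beta-hexosaminidase, an alpha-mannosidase and a sialidase, differed by between -0.02 and 0.03. Neu1 was lowest in vehicle tumour 1, at 7.21, and highest in vehicle tumour 2, at 7.64, with its TMP195 tumours between 7.44 and 7.47.

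The enzymes and carriers of lipid and phosphate turnover were led in spread by Acp2, a lysosomal acid phosphatase. It stood at 8.27, 8.45 and 8.43 under vehicle and at 8.28, 8.89 and 8.28 under TMP195. A single tumour, TMP195 tumour 2, lay 0.44 above the next highest, and the other TMP195 tumours lay within the vehicle range. The difference of 0.10 ± 0.18 (SE) became -0.10 without that tumour. Psap, the precursor of the saposins that present lipids to hydrolases, was the steadiest member over the tumours, at 11.60, 11.65 and 11.69 under vehicle and 11.66, 11.70 and 11.70 under TMP195, a difference of 0.04 ± 0.082 (SE) that ran from 0.018 without vehicle tumour 1 to 0.064 without vehicle tumour 3. Lipa, the acid lipase that frees cholesterol from its esters, Npc2, which passes that cholesterol on, and Grn, the precursor of the granulins, differed by between 0.03 and 0.05.

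Membrane proteins of the lysosome differed by -0.14 to 0.15. Scarb2 encodes LIMP-2, which carries beta-glucocerebrosidase to the lysosome, and measured 9.60, 9.46 and 9.60 under vehicle and 9.60, 9.92 and 9.60 under TMP195. TMP195 tumour 2 lay 0.32 above every other tumour, and the remaining TMP195 tumours equalled the upper vehicle ones to within 0.01. The difference was 0.15 ± 0.12 (SE) with all tumours, 0.046 without TMP195 tumour 2 and 0.21 without TMP195 tumour 1 or TMP195 tumour 3.

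Cln3 went the other way in the same tumour. It measured 7.94, 8.11 and 7.94 under vehicle and 7.96, 7.69 and 7.92 under TMP195, with TMP195 tumour 2 lowest by 0.24, and differed by -0.14 ± 0.11 (SE); this was -0.055 without TMP195 tumour 2, -0.083 without vehicle tumour 2 and -0.19 without TMP195 tumour 1. Lamp1, Lamp2, the tetraspanin gene Cd63, the cholesterol exporter gene Npc1 and Mcoln1 differed by between -0.02 and 0.08. Lamp1 ran from 10.33 to 10.44 over all 6 tumours, and Mcoln1 from 8.46 to 8.59.

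The last role group holds the proton pump and its regulator. Atp6v1h encodes a V-ATPase subunit found in nearly all cells and measured 7.50, 7.73 and 7.81 under vehicle and 7.71, 7.29 and 7.73 under TMP195. It was lowest in TMP195 tumour 2, the groups overlapped, and the difference of -0.11 ± 0.15 (SE) turned to 0.034 without that tumour. Tfeb itself stood at 7.12, 7.06 and 7.15 under vehicle and at 7.03, 7.20 and 6.85 under TMP195. Its highest and its lowest value both fell in the TMP195 group, and it differed by -0.09 ± 0.11 (SE), or 0.0033 without TMP195 tumour 3. The same tumour had the lowest macrophage marker mean, 7.25, against 7.36 to 7.57 in the others; the part of those cells in the Tfeb values was not tested.

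The macrophage-restricted members were then set against the ubiquitous ones. Each gene was centred on its own mean over the 6 tumours, since intensities of different probe sets cannot be compared, and the centred values were averaged within each class. The 30 ubiquitous members averaged between -0.045 and 0.055 in every tumour. The 5 macrophage-restricted members averaged 0.25, -0.37 and 0.10 under vehicle (tumours 1 to 3), while under TMP195 they averaged 0.073, -0.088 and 0.036. The macrophage-restricted averages spread more widely between tumours, and within the vehicle group more than between groups. An average of 5 genes can vary more than one of 30, so these spreads are not directly comparable. The range over the 6 tumours had a median of 0.63 for macrophage-restricted members, 0.30 for ubiquitous members and 0.42 for all genes. The wide ranges were those of Gpnmb (1.24), Atp6v0d2 (0.96) and Laptm5 (0.63), while Ctss and Acp5 had 0.28 each.

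Restricted minus ubiquitous, the class difference had a mean of -0.0082 ± 0.35 in the vehicle group and of 0.0082 ± 0.13 in the TMP195 group (SD, n = 3 each). The contrast of 0.016 was small beside the spread between tumours, and it ran from -0.18 without vehicle tumour 2 to 0.17 without vehicle tumour 1. Leaving out a tumour of the TMP195 group gave -0.027 (tumour 1), 0.092 (tumour 2) and -0.015 (tumour 3), and leaving out vehicle tumour 3 gave 0.061. The median difference was 0.026 for the 5 macrophage-restricted members and 0.016 for the 30 ubiquitous ones. Without vehicle tumour 2 the macrophage-restricted median was -0.13 and without vehicle tumour 1 it was 0.15.

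**Figure D2:**
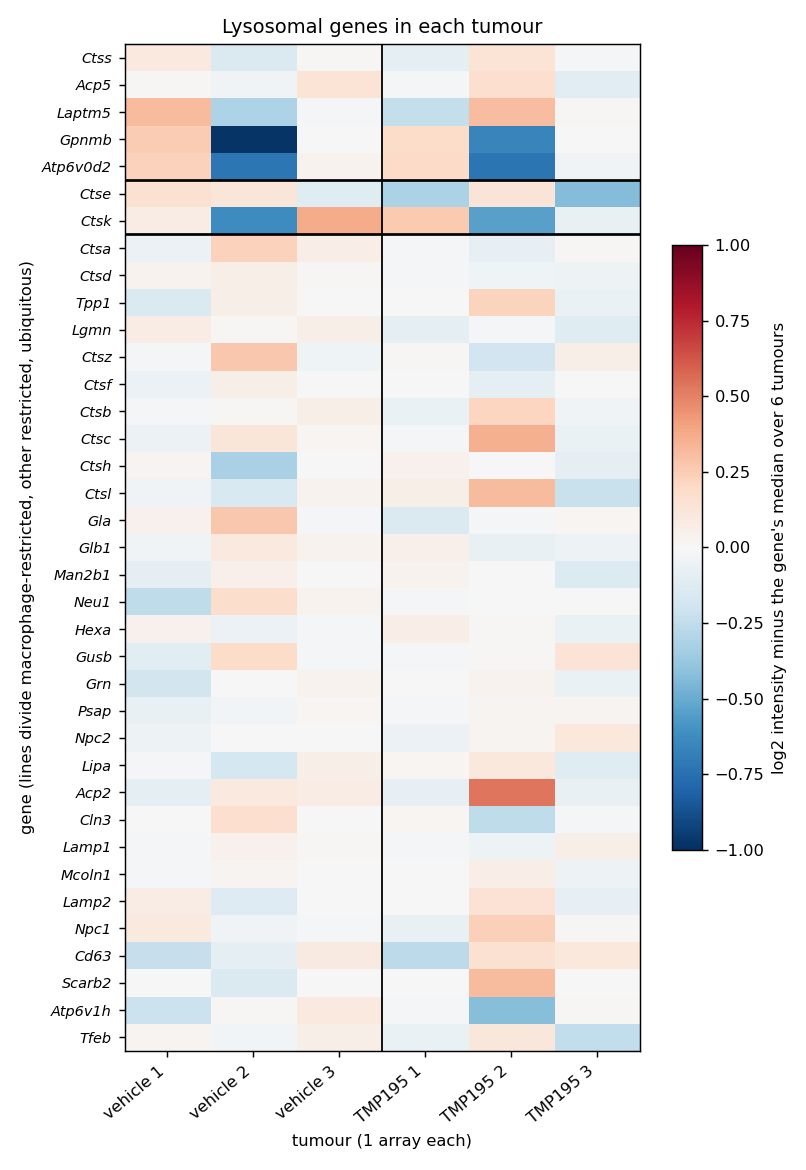
Log2 intensity of each of the 37 genes (rows) in each of the 6 tumours (columns), shown as colour relative to the gene's median over the tumours, with black lines dividing the 5 macrophage-restricted, 2 other restricted and 30 ubiquitous members. Gpnmb, Atp6v0d2 and Ctsk are lowest in vehicle tumour 2 and TMP195 tumour 2, and Acp2, Ctsc, Ctsl and Scarb2 are highest in TMP195 tumour 2.

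The macrophage-restricted class did not vary as a unit. Ctss, the cathepsin with which antigen-presenting cells process the invariant chain, measured 10.29, 10.05 and 10.21 under vehicle and 10.11, 10.33 and 10.19 under TMP195. Laptm5, a lysosomal membrane protein of blood-derived cells, measured 9.17, 8.54 and 8.84 under vehicle and 8.61, 9.16 and 8.86 under TMP195. Both were lowest in vehicle tumour 2 and high in vehicle tumour 1 and TMP195 tumour 2, and in both the groups overlapped, with differences of 0.03 ± 0.11 (SE) for Ctss and 0.03 ± 0.20 (SE) for Laptm5. Acp5, the tartrate-resistant phosphatase of osteoclasts and activated macrophages, measured 8.87, 8.82 and 8.99 under vehicle and 8.84, 9.02 and 8.75 under TMP195. TMP195 tumours gave both its highest and its lowest value, around a difference of -0.02 ± 0.11 (SE). Without vehicle tumour 2, Laptm5 differed by -0.13 and Ctss by -0.038; without TMP195 tumour 2 they differed by -0.12 and -0.033.

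Gpnmb, Atp6v0d2 and Ctsk followed a different course. Gpnmb, a membrane glycoprotein of lipid-laden macrophages, osteoclasts and melanocytes, measured 5.53, 4.29 and 5.27 under vehicle and 5.45, 4.61 and 5.27 under TMP195. Atp6v0d2, a V-ATPase subunit of osteoclasts and some macrophages, measured 5.52, 4.57 and 5.33 under vehicle and 5.48, 4.56 and 5.25 under TMP195. Ctsk, the collagen-degrading cathepsin of osteoclasts and fibroblasts, measured 7.29, 6.59 and 7.60 under vehicle and 7.49, 6.68 and 7.15 under TMP195. In all 3 genes vehicle tumour 2 and TMP195 tumour 2 were the lowest pair, and the other 4 tumours stood together above them. The mean of the low pair lay below that of the other tumours by -0.93 for Gpnmb, -0.83 for Atp6v0d2 and -0.74 for Ctsk on the log2 scale.

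Since each dosing group held one of the low pair, the groups overlapped throughout. The differences between groups were 0.08 ± 0.36 (SE) for Gpnmb, -0.04 ± 0.31 (SE) for Atp6v0d2 and -0.05 ± 0.30 (SE) for Ctsk. They turned with single tumours: Gpnmb was -0.29 without vehicle tumour 2 and -0.090 without TMP195 tumour 1, Atp6v0d2 was 0.23 without TMP195 tumour 2, 0.15 without vehicle tumour 1 and 0.055 without vehicle tumour 3, and Ctsk was 0.16 without TMP195 tumour 2 or vehicle tumour 3 and 0.014 without vehicle tumour 1. Gpnmb and Atp6v0d2 were also dim, at percentiles 42.0 and 42.5 of mean intensity, where a log2 difference of a given size rests on less signal. Having this pair of tumours lowest was not rare: it held for 3 of 37 members (8.11%) and for 7.63% of all genes. The pair was highest in 4 of 37 members (Acp2, Ctsc, Tpp1 and Mcoln1), or 10.8%, beside 10.4% of all genes.

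Marker lists of other cell types were read in the same tumours, as means of the log2 values. In the fibroblast list, 10 of 12 markers were lowest in vehicle tumour 2 and TMP195 tumour 2, whose list means were 8.75 and 8.60 against 8.96 to 9.45 in the other tumours. The adipocyte list did so in 6 of 9 markers, with means of 5.89 and 4.72 in that pair, 5.85 in TMP195 tumour 3 and 6.95 to 8.55 in the rest. Macrophage markers did so in 1 of 19. Their mean was 7.56, 7.38 and 7.57 under vehicle and 7.36, 7.56 and 7.25 under TMP195. The low levels of Gpnmb, Atp6v0d2 and Ctsk stood beside a macrophage marker mean of 7.38 in vehicle tumour 2 and 7.56 in TMP195 tumour 2. Single macrophage markers were split in TMP195 tumour 2. Mrc1 (6.68), Mertk (6.17) and Lyz2 (9.69) had their lowest values there. Cd14 (10.21), Cybb, Msr1, Fcgr1, C1qb, Aif1, Fcer1g, Cx3cr1 and Adgre1 had their highest. The part of macrophages in the levels of Gpnmb, Atp6v0d2 and Ctsk was not tested. Every intensity in the array set exceeded 0, so a value above 0 does not show that a marker was detected.

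Fibroblast markers ranged from 8.75 to 9.45 under vehicle and from 8.60 to 9.26 under TMP195, and their part in the levels of the 3 genes was not tested. Melanocyte and osteoclast markers were the other lists relevant to Gpnmb and Atp6v0d2. They had vehicle tumour 2 and TMP195 tumour 2 as the lowest pair in 0 of 6 and 0 of 8 markers. Melanocyte markers ranked between percentiles 6.73 (Dct) and 38.5 (Mlana) of mean intensity. Osteoclast markers ranked between 8.21 (Oscar) and 89.0 (Itgb3, an integrin that other cells make too), with Calcr at 13.2 and Tnfrsf11a, the RANK receptor, at 80.0.

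**Figure D3:**
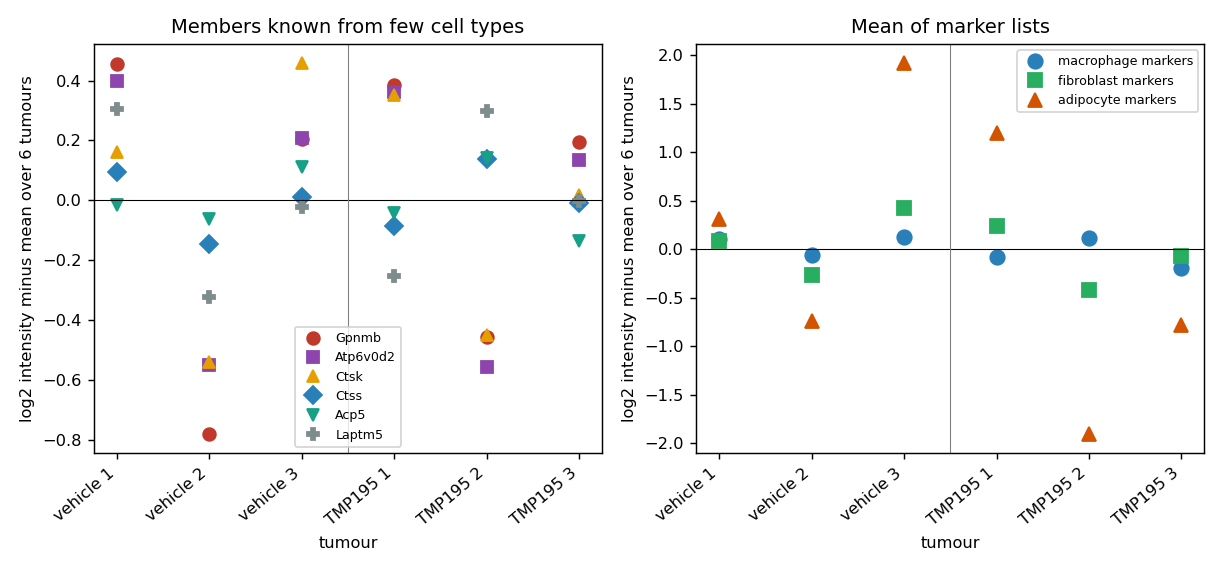
Left, log2 intensity minus its mean over the 6 tumours (vertical axis) of Gpnmb, Atp6v0d2, Ctsk, Ctss, Acp5 and Laptm5 in each tumour (horizontal axis, 1 point per array); right, the same for the means of the macrophage, fibroblast and adipocyte marker lists. In TMP195 tumour 2 Gpnmb, Atp6v0d2 and Ctsk lie at -0.46, -0.56 and -0.45. Beside them there, fibroblast markers lie at -0.42, adipocyte markers at -1.91 and macrophage markers at 0.11. In vehicle tumour 2 the same genes lie at -0.78, -0.55 and -0.54. Beside them there, fibroblast markers lie at -0.27, adipocyte markers at -0.74 and macrophage markers at -0.065.

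Single tumours were also compared over all 37 members. For every gene, a tumour's value was set against the median of the remaining 5. In TMP195 tumour 2, 10 of 37 members lay more than 0.2 above that median (27%, beside 20.9% of all genes) and 6 lay more than 0.2 below it (16.2%, beside 18.6%). It gave the highest value of 15 members, or 40.5%, beside 25.4% of all genes, and the lowest of 8, or 21.6%, beside 22.4%. The largest deviations upward were 0.60 for Acp2, 0.38 for Ctsc, 0.35 for Ctsl and 0.32 for both Scarb2 and Laptm5. Vehicle tumour 2 gave the highest value of 10 members (27%, beside 24.2% of all genes), all of them among the 30 ubiquitous ones. It gave the lowest value of 8 members (21.6%, beside 18.7%), of which 4 were ubiquitous. TMP195 tumour 3 gave the lowest value of 10 members (27%, beside 11.6% of all genes). Vehicle tumour 3 gave the lowest value of 0 members, beside 14.4% of all genes. In vehicle tumour 3 and TMP195 tumour 1, median absolute deviations of the members were 0.039 and 0.041, beside 0.093 and 0.101 over all genes. In vehicle tumour 2 and TMP195 tumour 2 they were 0.145 and 0.147, beside 0.141 and 0.154 over all genes. For the 30 ubiquitous members alone they were 0.099 in vehicle tumour 2 and 0.103 in TMP195 tumour 2, below all genes in both. The shares over all genes come from the same arrays, and no test was made of the members against them.

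The promoter E-box was the last feature compared. RefSeq windows from 250 bases before to 50 after the start were found for 31 of 37 members, and some genes had several windows. The heptamer TCACGTG, read on both strands and including the longer TCACGTGA, was present for 8 of 31 members (25.8%), beside 4.29% of the 27025 genes with a window. These were Lamp1, Ctsd, Cln3, Mcoln1 and Gla, shown above, and Ctsa, Lgmn and Glb1. The palindrome TCACGTGA was present for 5 of 31 (16.1%), beside 1.12%, the shorter CACGTG, which the others contain, for 10 of 31 (32.3%), beside 8.09%, and the full CLEAR palindrome for Cln3 alone, beside 0.37%.

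All 8 members with TCACGTG differed by less than 0, from -0.15 for Gla to -0.0031 for Mcoln1, with a median of -0.089. Among the 23 members whose windows lack it, 6 were below 0 and the median was 0.033. Of all 835 measured genes with TCACGTG, 52.3% were below 0, with a median of -0.0059. The motif was examined with the members' differences already known, none of the 8 passed limma's test, and the count was given no test. Vehicle tumour 2 held the highest value of 5 of the 8 and TMP195 tumour 2 the lowest of 4, beside 24.2% and 22.4% of all genes. With both of these tumours left out, 5 of 8 remained below 0, and with any single tumour left out 7 or 8 did. Mcoln1 turned to 0.012 with median centring of the arrays. With the shorter CACGTG, 9 of 10 members were below 0, with a median of -0.065 and Ctsl at 0.10, beside 52.9% of all measured genes with it. Genes read in the same 6 tumours are not independent of each other.

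**Figure D4:**
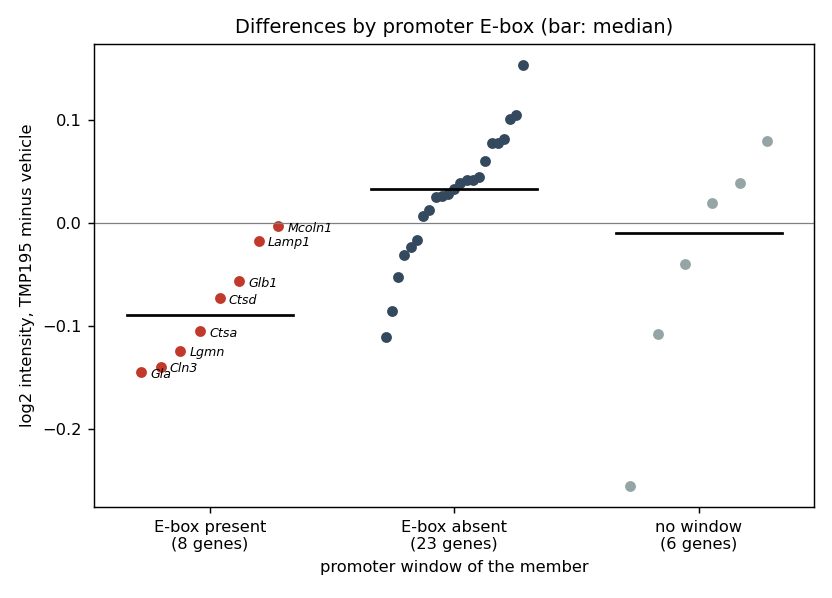
Log2 intensity difference, TMP195 minus vehicle (vertical axis), for 8 members whose RefSeq promoter window holds the E-box TCACGTG, 23 whose window does not and 6 with no window, 1 point per gene and a bar at each median. The 8 named genes lie between -0.15 and -0.0031.

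A macrophage-linked motif was read in the same windows. GAGGAAG is a core of the sites bound by the myeloid factor PU.1. It was present on either strand for 10 of 31 members (32.3%), beside 15.4% of genes with a window. Macrophage-restricted Gpnmb and Acp5 had windows without it, and Atp6v0d2 had no window. The carriers were macrophage-restricted Ctss and Laptm5, then Ctsk, and the ubiquitous Ctsc, Cd63, Lipa, Gusb, Gla, Man2b1 and Cln3. Of these 10 members 4 were below 0, with a median of 0.026.

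The rest of the lysosomal pathway was covered by 84 further genes, of which 75 were measured. In limma, 0 of 75 passed an adjusted p of 0.05, 1 of 75 lay at an unadjusted p under 0.05, and 38 of 75 were below 0 (median -7e-04), beside 0%, 2.52% and 50.5% of all genes. The groups did not overlap in 8 of 75 (10.7%), beside 6.68% of all genes. The gene with the low unadjusted p was Tfec, a relative of Tfeb expressed in macrophages, at 3.16, 3.05 and 3.27 under vehicle and 2.89, 2.68 and 2.80 under TMP195. All TMP195 tumours lay below all vehicle tumours, a difference of -0.37 ± 0.10 (SE; limma unadjusted p = 0.0092, adjusted p = 1.0). Its signal ranked at percentile 16.5 of mean intensity over all genes. The filter on dim genes removed it, and with an offset of 16 added before the log the difference was -0.12.

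Igf2r, the large mannose 6-phosphate receptor that delivers new hydrolases, measured 9.31, 9.06 and 9.37 under vehicle and 9.39, 9.59 and 9.55 under TMP195. Its groups did not overlap, and the difference was 0.26 ± 0.12 (SE), or 0.17 without vehicle tumour 2 and 0.13 without vehicle tumour 2 and TMP195 tumour 2. Among 26 measured further hydrolases 13 were below 0, with Dpp7, a dipeptidyl peptidase, at -0.35 ± 0.19 (SE) and Arsa, arylsulfatase A, at 0.16 ± 0.085 (SE). Dpp7 ran from -0.51 without TMP195 tumour 1 to -0.16 without TMP195 tumour 2. Among 16 further membrane proteins 7 were below 0, with Tmem106b at 0.17 ± 0.090 (SE) and the cystine exporter gene Ctns at -0.13 ± 0.098 (SE).

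Further proton pump genes stayed within a narrow band: 8 of 15 were below 0, from -0.16 ± 0.091 (SE) for Atp6v0e to 0.12 for Atp6v1a, and Atp6ap2 differed by 0.12 ± 0.099 (SE). The value for Atp6ap2 was 0.062 without vehicle tumour 1 and 0.19 without vehicle tumour 3. In the group of 5 targeting genes 2 were below 0, among them Nagpa, which uncovers the mannose 6-phosphate tag, at -0.13 ± 0.11 (SE), or -0.031 without TMP195 tumour 3. Of 13 regulators and inhibitors 8 were below 0, and the cystatin gene Cst7, which encodes an inhibitor of cysteine cathepsins in immune cells, differed by 0.24 ± 0.11 (SE), or 0.12 with the offset of 16.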

How the data were processed

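Whole mammary tumours of 6 mice, 3 per dosing group by the labels' titles, were profiled on Affymetrix arrays. The authors deposited array signal intensity, and RMA and Affymetrix Power Tools are named in the submitters' notes on processing. Their versions and any filters were not stated. The scale is not stated and was taken as linear, since all values exceed 0 and column medians are between 44.8 and 46.4. Of 27359 probe sets, 21784 had 1 gene symbol in the platform's annotation table, 1620 several and 3955 none; Entrez IDs of 21693 were found in a RefSeq gene table of GRCm38.p6, with 0 symbols changed. The brightest probe set stood for a gene, leaving 19937. Limma 3.58.1 (R 4.3.3) was run on the log2 intensities (constant prior, TMP195 minus vehicle, two-sided, Benjamini-Hochberg), tested on simulated data; Python 3.11.15, pandas 2.3.3 and matplotlib 3.10.9 did the rest.

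Members and lists were chosen with earlier results of these data known. Values in every tumour are given for restricted members, Tfeb, the 2 members of each role with the smallest unadjusted p and members whose groups do not overlap; 2 genes per further list were named by unadjusted p. Other members named for single tumours, and Tfec's dim signal, were picked out after their values were seen. The planned correlation with the macrophage marker mean was not used, because that mean fell into 2 separate sets of tumours.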

Additional observations from a re-analysis of the deposited data

How the results depend on the processing

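No gene, member or further lysosomal gene passed an adjusted p of 0.05 in limma under any alternative run. An adjusted p of 0.10 was read in the main fit only, and 0 genes passed it. The lowest adjusted p of a named member in limma under any run was 0.963. In the main fit, limma's unadjusted p was under 0.05 for 502 of 19937 genes. The alternative runs were array weights, averaged probe sets, an added offset of 16, cyclic loess and median centring. A robust prior with a trend, a filter on dim genes, a block for the replicate number, and tumours left out were also run. No pairing of the tumours by replicate number is stated in the labels. Correlations of same-numbered deviations were -0.21, -0.063 and -0.097, which cannot by themselves show whether tumours were paired. The fit with a block for the replicate number also called 0 genes. Of 21 member differences followed, 6 kept their sign throughout. Averaged probe sets, the robust prior with a trend, the filter on dim genes and the replicate block left these differences unchanged and could not turn a sign. With array weights the sign turned for Acp2 (-0.034), Atp6v0d2 (0.0036), Ctss (-0.022), Lamp1 (0.0039) and Laptm5 (-0.060), and with median centring for Mcoln1 (0.012). Without the tumours numbered 2 of both groups it turned for Acp2 (-0.067), Atp6v1h (0.059), Cln3 (0.0018), Ctss (-0.10), Ctsz (0.063), Glb1 (0.0014), Gpnmb (-0.040), Lamp1 (0.024), Laptm5 (-0.27) and Scarb2 (-0.0027). With single tumours left out, ranges that crossed 0 were -0.10 to 0.20 for Acp2, -0.10 to 0.038 for Acp5, -0.32 to 0.23 for Atp6v0d2, -0.20 to 0.034 for Atp6v1h, -0.34 to 0.16 for Ctsk, -0.038 to 0.083 for Ctss, -0.29 to 0.33 for Gpnmb, -0.047 to 0.0082 for Lamp1, -0.13 to 0.19 for Laptm5, -0.037 to 0.025 for Mcoln1 and -0.17 to 0.0033 for Tfeb. The count of members with TCACGTG below 0, added after seeing the data, was 5 without the tumours numbered 2 of both groups and 7 to 8 with single tumours left out. The median over all 37 members lay between -0.028 and 0.026 with single tumours left out.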
